A study of Homo sapiens with 12 samples.

Results

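HAMP encodes hepcidin, the peptide hormone by which the liver limits the release of iron into plasma. HAMP and 9 genes of the BMP-SMAD signalling pathway that drives its transcription were followed in HepG2 cells kept in 4 culture media. The 10 genes were taken by symbol from the 10945 rows of the count table that carry a gene symbol, and all 10 were measured. They are HAMP, the receptors BMPR2 and ACVR1, the co-receptor NEO1, the signal transducer SMAD9, the inhibitors SMAD6 and SMAD7, and the target genes ID1, ID2 and ID3.

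HepG2 is an established human liver cancer line that is widely used as a model of hepatocytes. The genotype given for all cells here was wild type. Cells were maintained and seeded in EMEM, a minimal essential medium, and after 24 h were given Plasmax, a medium formulated after human plasma, DMEM with a low glucose content (LGDMEM), DMEM with a high glucose content (HGDMEM) or fresh EMEM. All 4 groups had 10% heat-inactivated fetal bovine serum, a renewal of the medium at 48 h and harvest after 96 h. RNA was sequenced from the 3′ ends of transcripts in 3 libraries per medium, 12 in all. Whether the 3 libraries of 1 medium are from different cultures is not in the labels. The p-values below therefore reflect library-to-library spread, part or all of which may be technical.

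In hepatocytes, BMP ligands bind type I receptors such as ALK2, the product of ACVR1, together with type II receptors such as BMPR2, and the co-receptor haemojuvelin, which neogenin (NEO1) also binds, strengthens the signal. The activated receptors phosphorylate the transducers SMAD1, SMAD5 and SMAD9, which enter the nucleus with SMAD4 and raise transcription of HAMP and of ID1, ID2, ID3, SMAD6 and SMAD7. The last pair are inhibitory SMADs that damp the same pathway, and inflammatory signals through IL-6 and STAT3 reach the HAMP promoter by a separate route.

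The proximal promoters of 5 of the genes are shown because they include the 3 targets that were lower in Plasmax than in EMEM (HAMP, ID1 and ID3) and the receptor genes, which were higher. Each sequence is the 250 bases before the annotated start in RefSeq (GRCh38.p14), written 5′ to 3′ on the gene's own strand. Capitals mark every match to GGCGCC, the letters of the BMP-responsive element known from the HAMP promoter, and to TTCNNNGAA, the letters of a STAT site, searched on both strands. HAMP lies at chr19:35282278-35282527 (+), ID3 at chr1:23559502-23559751 (−), ID1 at chr20:31605039-31605288 (+), BMPR2 at chr2:202376077-202376326 (+) and the first of 3 annotated ACVR1 starts at chr2:157876331-157876580 (−).
HAMP: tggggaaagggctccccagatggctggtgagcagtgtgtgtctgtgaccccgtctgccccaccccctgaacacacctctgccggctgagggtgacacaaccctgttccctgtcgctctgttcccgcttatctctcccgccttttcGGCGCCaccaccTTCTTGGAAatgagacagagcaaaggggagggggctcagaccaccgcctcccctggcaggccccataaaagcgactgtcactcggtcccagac
ID3: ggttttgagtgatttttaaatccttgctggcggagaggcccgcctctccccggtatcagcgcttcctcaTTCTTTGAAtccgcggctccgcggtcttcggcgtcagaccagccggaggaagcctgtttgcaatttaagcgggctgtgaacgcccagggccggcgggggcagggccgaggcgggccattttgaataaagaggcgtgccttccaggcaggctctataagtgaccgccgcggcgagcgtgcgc
ID1: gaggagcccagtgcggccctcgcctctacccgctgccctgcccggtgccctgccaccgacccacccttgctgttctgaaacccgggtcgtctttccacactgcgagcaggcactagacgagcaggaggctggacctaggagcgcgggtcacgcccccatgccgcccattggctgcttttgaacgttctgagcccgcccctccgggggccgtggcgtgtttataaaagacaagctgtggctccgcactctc
BMPR2: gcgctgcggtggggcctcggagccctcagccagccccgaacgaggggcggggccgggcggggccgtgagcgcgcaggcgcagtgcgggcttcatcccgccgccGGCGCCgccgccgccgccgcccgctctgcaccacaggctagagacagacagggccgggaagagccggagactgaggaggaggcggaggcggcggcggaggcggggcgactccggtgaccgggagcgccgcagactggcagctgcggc
ACVR1: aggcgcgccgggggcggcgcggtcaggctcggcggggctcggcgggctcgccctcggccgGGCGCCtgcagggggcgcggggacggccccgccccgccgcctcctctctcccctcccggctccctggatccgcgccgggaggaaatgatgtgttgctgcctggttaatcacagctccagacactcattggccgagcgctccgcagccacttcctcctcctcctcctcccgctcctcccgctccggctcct

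The HAMP window held GGCGCC 105 to 100 bases before the start and TTCNNNGAA 93 to 85 bases before it, and was the one window among the members with both. GGCGCC also stood in BMPR2, 147 to 142 bases before the start, and in ACVR1, 190 to 185 bases before it. TTCNNNGAA was also found in ID3, 181 to 173 bases before the start, and the ID1 window held neither. Over all 35116 promoters of the same length, 16.4% held GGCGCC and 6.57% held TTCNNNGAA. Among the 14 windows annotated for the 10 genes, 3 held GGCGCC and 2 held TTCNNNGAA. The shorter SMAD box CAGAC occurred in 38% of all promoters and in 6 of the 14 windows, 4 times in HAMP, and none of these matches overlapped another motif. GGCGCC thus stood before a gene that was lower in Plasmax and before 2 that were higher. A match describes letters, not binding, and bases farther from the start were not searched.

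The deposited counts on rows with a gene symbol summed to between 3995365 and 5840057 per library, and the 10 genes together held between 2419 and 5439 counts per library. Levels are given in CPM, the usual depth-scaled counts with TMM factors applied, and describe the same gene in different libraries. Because the reads come from bulk cultures, fewer cells of a kind and less RNA per cell cannot be told apart. The Plasmax libraries stood apart from the other 9 on the first principal component (37.1% of the variance), and LGDMEM 3 stood apart on the second at −51.8, against −11.0 to 14.7 for the other 11 libraries. All 10 hepatocyte and hepatoma markers were present, but their summed level was 12330 to 13940 CPM in Plasmax, against 21430 to 23930 CPM in LGDMEM, 24400 to 26790 CPM in HGDMEM and 22470 to 23030 CPM in EMEM. Of these markers 1 was higher and 6 were lower in Plasmax than in EMEM, and the part of that difference in the results below was not tested. Of other cell types' markers, CD68, CD14 and LYZ summed to 1966 to 2193 CPM in Plasmax and 2657 to 3294 CPM in EMEM, ACTA2, COL1A1 and PDGFRB to 69.4 to 94.9 CPM in Plasmax and 43.9 to 59.5 CPM in EMEM, and LYVE1 to 4.55 to 6.07 CPM in Plasmax and 0 to 2.10 CPM in EMEM. The first sum was nearly all LYZ (2094 CPM in Plasmax, 2972 CPM in EMEM), while CD68 went the other way (5.77, 2.24 CPM). The second was mostly ACTA2 (71.6, 40.7 CPM), while PDGFRB went the other way (2.33, 7.03 CPM). In each of these lists 1 gene was called higher and 1 lower in Plasmax than in EMEM. Of the markers looked for, 3 of 5 leukocyte, 1 of 6 endothelial and 3 of 6 stellate or fibroblast genes were measured. The part of these markers in the results was not tested either.

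Between Plasmax and EMEM, 7 of the 10 genes differed at an adjusted p below 0.05, where 22.1% of all 10945 genes did (quasi-likelihood test of edgeR, Benjamini-Hochberg adjustment over all genes, used for every adjusted p below unless another tool is named). BMPR2, ACVR1 and NEO1 were higher, where 10% of all genes were, and HAMP, SMAD9, ID1 and ID3 were lower, where 12.1% were. The receptors and co-receptor thus moved opposite to hepcidin, ID1 and ID3. ID2 was lower too but was not called (log2 fold change −0.28, adjusted p = 0.239). The median absolute log2 fold change was 0.96 over the 10 genes and 0.39 over all genes tested. Leaving out Plasmax 3 or EMEM 1 left 4 called genes (16.4% and 15.5% of all genes), the largest loss from any single library.

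**Figure D1:**
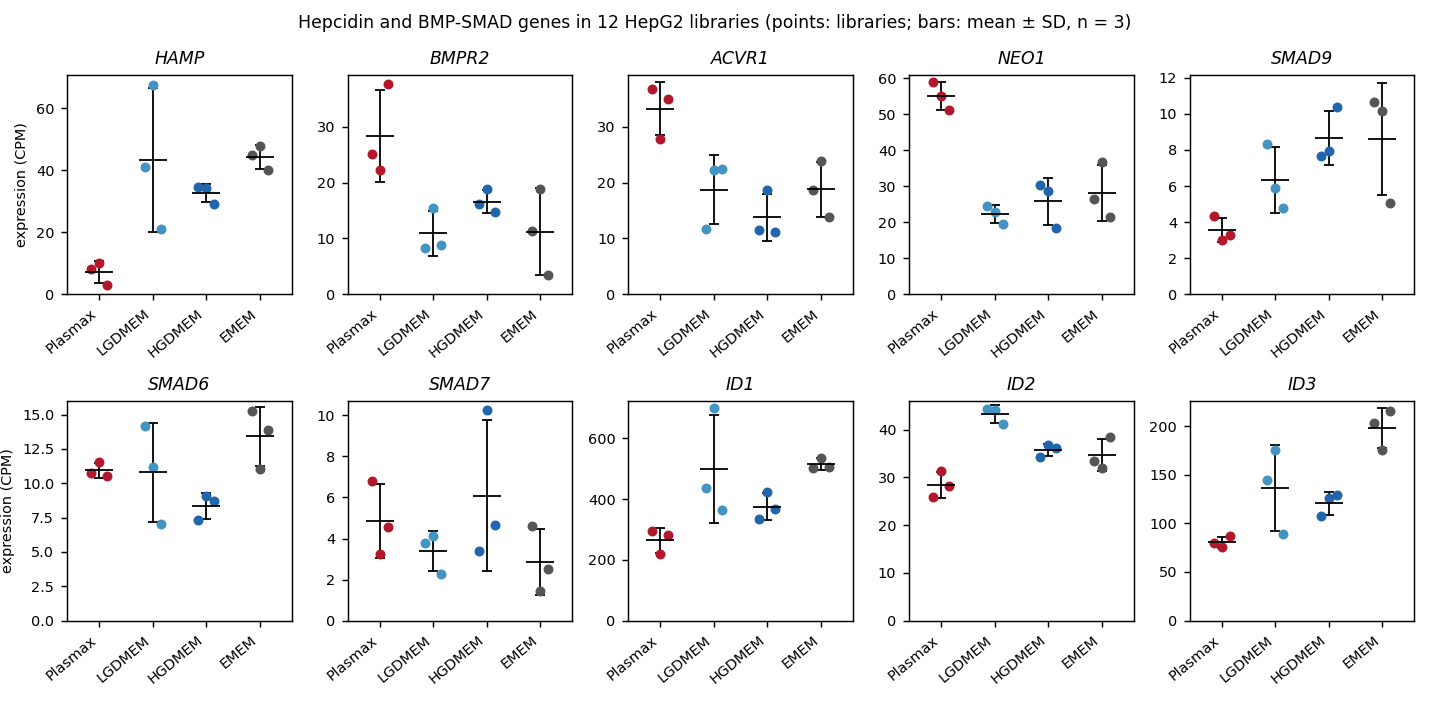
Expression (CPM, linear axes from 0) of the 10 genes in each of the 12 libraries, with Plasmax, LGDMEM, HGDMEM and EMEM from left to right in each panel; points are libraries and bars are mean ± SD, n = 3. HAMP in Plasmax lies between 3.10 and 10.05 CPM, under every library of the other 3 media, while all 3 Plasmax libraries of NEO1 lie above all others.

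Hepcidin was the member with the largest change. HAMP had 8.03, 10.05 and 3.10 CPM in the Plasmax libraries, from 39, 53 and 15 counts, against 41.1, 67.6 and 21.1 CPM in LGDMEM, 34.5, 34.1 and 29.2 CPM in HGDMEM and 44.9, 47.9 and 39.97 CPM in EMEM. Every Plasmax library lay below all 9 others, and the lowest of those 9 was LGDMEM 3. The log2 fold change was −2.64 ± 0.37 (SE) against EMEM, a 6.22-fold lower level (adjusted p = 5.92e-05), −2.61 ± 0.37 against LGDMEM (adjusted p = 7.18e-05) and −2.20 ± 0.37 against HGDMEM (adjusted p = 0.000243). These 3 comparisons share the Plasmax libraries and are not independent of one another. In EMEM the spread was narrow, 44.25 ± 4.00 CPM (SD, n = 3), while in LGDMEM it was 43.3 ± 23.4 CPM, set by libraries 2 and 3. The log2 fold change of Plasmax against LGDMEM was −2.13 without LGDMEM 2 (adjusted p = 0.00044) and −2.94 without LGDMEM 3 (adjusted p = 1.79e-06).

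The type II receptor BMPR2, which pairs with ALK2 and ALK3 to carry BMP signals, had 25.1, 22.2 and 37.6 CPM in Plasmax, against 8.33, 15.5 and 8.83 CPM in LGDMEM, 16.1, 18.9 and 14.8 CPM in HGDMEM and 11.4, 18.9 and 3.37 CPM in EMEM. All 3 Plasmax libraries were above all others, with Plasmax 3 far above its own group and EMEM 3 the lowest of all 12. It was higher by 1.32 ± 0.40 (log2 fold change, SE) than in EMEM (adjusted p = 0.0243) and by 1.36 ± 0.41 than in LGDMEM (adjusted p = 0.0216). Against HGDMEM it was 0.77 (95% interval −0.05 to 1.58, adjusted p = 0.161), which did not pass the threshold, but did in a fit to these 2 media alone (0.76, adjusted p = 0.025). These calls rest on few libraries. The call against EMEM was lost without Plasmax 3 (1.06, adjusted p = 0.115), EMEM 1 (1.33, adjusted p = 0.0675) or EMEM 3 (0.89, adjusted p = 0.0788), and without EMEM 2 the value was 1.96 (adjusted p = 0.00409). The call against LGDMEM was lost without Plasmax 3 (1.11, adjusted p = 0.107), LGDMEM 1 (1.21, adjusted p = 0.0765) or LGDMEM 3 (1.23, adjusted p = 0.0618).

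The type I receptor gene ACVR1 had 36.9, 27.9 and 34.9 CPM in Plasmax, against 11.6, 22.2 and 22.4 CPM in LGDMEM, 11.4, 18.7 and 11.2 CPM in HGDMEM and 18.7, 23.9 and 13.9 CPM in EMEM. Again all 3 Plasmax libraries were above the other 9. ACVR1 had a log2 fold change of 0.82 ± 0.28 against EMEM (adjusted p = 0.0422), 0.82 ± 0.28 against LGDMEM (adjusted p = 0.0438) and 1.26 ± 0.28 against HGDMEM (adjusted p = 0.00281). The call against HGDMEM held whichever library was left out. The call against EMEM was lost without Plasmax 1 (0.73, adjusted p = 0.123), Plasmax 3 (0.78, adjusted p = 0.107), EMEM 1 (0.81, adjusted p = 0.105) or EMEM 3 (0.64, adjusted p = 0.171), and that against LGDMEM without any of the 3 Plasmax libraries, LGDMEM 1 or LGDMEM 2, with adjusted p between 0.0503 and 0.179.

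NEO1, a membrane receptor that binds haemojuvelin and other repulsive guidance molecules, had 58.9, 55.2 and 51.1 CPM in Plasmax. It had 24.5, 22.8 and 19.5 CPM in LGDMEM, 30.4, 28.6 and 18.4 CPM in HGDMEM and 26.5, 36.7 and 21.5 CPM in EMEM. The lowest Plasmax library was well above the highest of the others, EMEM 2. Its log2 fold change was 0.96 ± 0.22 against EMEM (adjusted p = 0.00419), 1.31 ± 0.22 against LGDMEM (adjusted p = 0.000447) and 1.09 ± 0.22 against HGDMEM (adjusted p = 0.00125). An antisense transcript and pseudogenes overlap NEO1, and an antisense transcript overlaps ID2, in the GENCODE annotation; whether the authors' counting used strand is not given in the sources used here, so part of those counts may belong to the overlapping genes.

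SMAD9, a receptor-activated SMAD of the BMP branch, had few counts, at 4.33, 3.03 and 3.31 CPM in Plasmax, against 8.33, 5.90 and 4.75 CPM in LGDMEM, 7.69, 7.95 and 10.4 CPM in HGDMEM and 10.7, 10.2 and 5.05 CPM in EMEM. The Plasmax libraries were the lowest 3 of the 12, but LGDMEM 3 and EMEM 3 came close to them. SMAD9 had a log2 fold change of −1.27 ± 0.41 against EMEM (adjusted p = 0.0302), −1.28 ± 0.40 against HGDMEM (adjusted p = 0.025) and −0.82 against LGDMEM (95% interval −1.69 to 0.04, adjusted p = 0.171). The call against EMEM was lost with limma voom (−1.20, adjusted p = 0.0643), in a fit to these 2 media alone (adjusted p = 0.0547) and without Plasmax 2 (adjusted p = 0.0945), Plasmax 3 (adjusted p = 0.0782), EMEM 1 (adjusted p = 0.116) or EMEM 2 (adjusted p = 0.0967). The call against HGDMEM was lost without Plasmax 2 (adjusted p = 0.0801), Plasmax 3 (adjusted p = 0.066) or HGDMEM 3 (adjusted p = 0.0897).

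Neither inhibitory SMAD passed the threshold in any of the 6 comparisons. SMAD6, which blocks BMP-activated SMADs, had 10.7, 11.6 and 10.5 CPM in Plasmax, against 14.1, 11.2 and 7.02 CPM in LGDMEM, 7.31, 9.10 and 8.67 CPM in HGDMEM and 15.3, 11.0 and 13.9 CPM in EMEM. Plasmax overlapped EMEM and LGDMEM and lay above HGDMEM. The log2 fold change of Plasmax against EMEM was −0.29 (95% interval −0.91 to 0.34), against LGDMEM 0.02 (−0.61 to 0.66) and against HGDMEM 0.39 (−0.25 to 1.02). SMAD7, which blocks BMP and TGF-beta receptors, had 6.80, 3.22 and 4.55 CPM in Plasmax, 3.79, 4.13 and 2.26 CPM in LGDMEM, 3.38, 10.3 and 4.65 CPM in HGDMEM and 4.61, 1.42 and 2.52 CPM in EMEM. With 8 to 62 counts per library, its groups overlapped in every comparison with Plasmax, and the intervals, −0.42 to 1.99 against EMEM, −0.68 to 1.70 against LGDMEM and −1.48 to 0.81 against HGDMEM, leave room for sizeable changes in either direction.

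The ID genes encode inhibitors of DNA binding, which sequester helix-loop-helix factors and are standard readouts of BMP signalling. ID1 had 296, 219 and 280 CPM in Plasmax, against 435, 700 and 364 CPM in LGDMEM, 335, 422 and 367 CPM in HGDMEM and 503, 537 and 507 CPM in EMEM. Every Plasmax library was below the other 9, and the EMEM libraries lay close together at 515.7 ± 18.3 CPM (SD, n = 3). The log2 fold change was −0.96 ± 0.19 against EMEM (adjusted p = 0.00112) and −0.92 ± 0.19 against LGDMEM (adjusted p = 0.0017). Against HGDMEM it was −0.50 (95% interval −0.89 to −0.11, adjusted p = 0.0509), just short of the threshold, which it passed with RLE scaling (adjusted p = 0.0491), the stricter low-count filter (adjusted p = 0.0479), DESeq2 (adjusted p = 0.034), limma voom (adjusted p = 0.0413) and a fit to the 2 media alone (adjusted p = 0.00748).

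ID3 had 79.5, 75.6 and 86.6 CPM in Plasmax, against 144, 176 and 89.0 CPM in LGDMEM, 107, 126 and 129 CPM in HGDMEM and 203, 175 and 216 CPM in EMEM. Plasmax was again below all others, though LGDMEM 3 was close to Plasmax 3. Its log2 fold change was −1.30 ± 0.19 against EMEM (adjusted p = 7.57e-05), −0.76 ± 0.19 against LGDMEM (adjusted p = 0.00659) and −0.58 ± 0.19 against HGDMEM (adjusted p = 0.0253). The call against HGDMEM was lost without Plasmax 1 (adjusted p = 0.069), Plasmax 2 (adjusted p = 0.0855), HGDMEM 2 (adjusted p = 0.0652) or HGDMEM 3 (adjusted p = 0.0821).

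ID2 passed the threshold against LGDMEM but not against HGDMEM or EMEM. It had 26.0, 31.3 and 28.1 CPM in Plasmax, against 44.4, 44.2 and 41.2 CPM in LGDMEM, 34.3, 36.8 and 36.2 CPM in HGDMEM and 33.5, 32.0 and 38.5 CPM in EMEM. The Plasmax libraries were the lowest 3, and the LGDMEM libraries the highest 3. The log2 fold change was −0.60 ± 0.17 against LGDMEM (adjusted p = 0.0136, and −0.54 with adjusted p = 0.0554 without Plasmax 1), −0.28 against EMEM (95% interval −0.63 to 0.06) and −0.33 against HGDMEM (−0.67 to 0.02). Whether the fold changes of ID2 and ID3 differ was not tested.

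**Figure D2:**
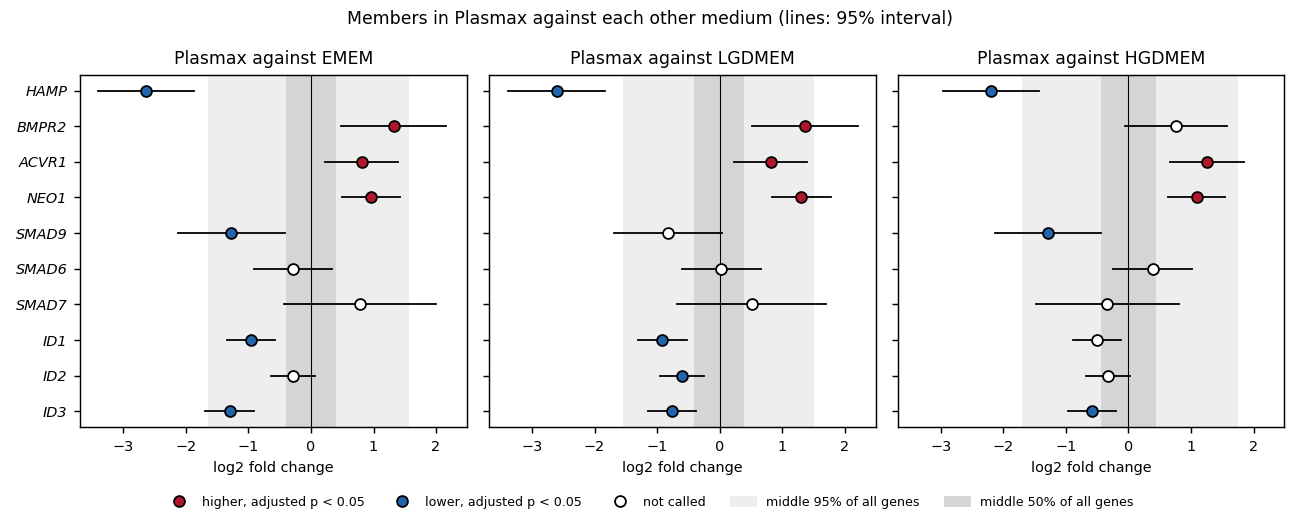
Log2 fold change of the 10 genes in Plasmax against EMEM, LGDMEM and HGDMEM, 1 panel each; points are estimates, lines are 95% intervals, filled points have an adjusted p below 0.05, and grey bands hold the middle 50% and 95% of all 10945 genes. HAMP, at −2.64 against EMEM, lies outside the middle 95% of genes in all 3 panels, and NEO1 is called higher in all 3.

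Against LGDMEM 7 of the 10 genes were called, where 21.2% of all genes were. BMPR2, ACVR1 and NEO1 were higher, as were 9.48% of all genes, and HAMP, ID1, ID2 and ID3 were lower, as were 11.7%. Against HGDMEM 5 were called, where 26.9% of all genes were. ACVR1 and NEO1 were higher, as were 12.8% of all genes, and HAMP, SMAD9 and ID3 were lower, as were 14.1%. Without Plasmax 2 or HGDMEM 3 that count was 3 (21.6% and 20.6% of all genes). The libraries of Plasmax did not overlap those of EMEM in 8 of the 10 genes, where 39.4% of all genes did not overlap. The same held for 8 genes against LGDMEM (36.2% of all genes) and 9 against HGDMEM (42.6% of all genes). In a test of any difference among the 4 media, 6 of the 10 genes passed (HAMP, BMPR2, ACVR1, NEO1, ID1 and ID3), against 22.9% of all genes, with adjusted p of 0.000181 for HAMP and 0.0368 for BMPR2.

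Ordered by their mean levels, Plasmax was lowest of the 4 media for HAMP, SMAD9, ID1, ID2 and ID3, and highest for BMPR2, ACVR1 and NEO1. HAMP averaged 7.06 ± 3.57 CPM in Plasmax, 32.6 ± 2.96 CPM in HGDMEM, 43.3 ± 23.4 CPM in LGDMEM and 44.25 ± 4.00 CPM in EMEM (SD, n = 3 each), and its neighbours above Plasmax did not differ from one another at the threshold. ID3 averaged 80.6 ± 5.57 CPM in Plasmax, 120.8 ± 11.8 CPM in HGDMEM, 136.4 ± 44.0 CPM in LGDMEM and 198.2 ± 20.8 CPM in EMEM. Plasmax and HGDMEM differed at the threshold, while HGDMEM and LGDMEM overlapped.

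Among LGDMEM, HGDMEM and EMEM, edgeR called 0 of the 10 genes in each of the 3 comparisons, where 0.0731% (LGDMEM against EMEM), 0.164% (HGDMEM against EMEM) and 0.064% (HGDMEM against LGDMEM) of all genes were called. At an unadjusted p below 0.05 the counts were 1 (7.91% of all genes), 3 (7.58%) and 1 (7.86%). DESeq2 called 0 (0.594% of the genes it gave an adjusted p), 1 (0.621%) and 0 (0.709%). The gene called by DESeq2 was ID3, which was lower in every HGDMEM library, at 107 to 129 CPM, than in any EMEM library, at 175 to 216 CPM. Its log2 fold change was −0.71 ± 0.18, with an adjusted p of 0.169 in edgeR, 0.0418 in DESeq2 and 0.0201 in a fit to the 2 media alone. The libraries did not overlap in 4 of the 10 genes (HAMP, SMAD6, ID1 and ID3, each lower in HGDMEM), against 15% of all genes.

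HAMP itself had 34.5, 34.1 and 29.2 CPM in HGDMEM and 44.9, 47.9 and 39.97 CPM in EMEM, a log2 fold change of −0.44 (95% interval −1.12 to 0.24, adjusted p = 0.821). Between LGDMEM and EMEM it was −0.03 (−0.71 to 0.65), with −0.51 without LGDMEM 2 and 0.30 without LGDMEM 3. Within LGDMEM, HAMP, ID1 and ID3 were each highest in library 2 and lowest in library 3, which stood apart over all genes. ID3 was −0.54 (−0.92 to −0.15) between LGDMEM and EMEM, with an unadjusted p of 0.00851 and an adjusted p of 0.42. It was −0.76 without LGDMEM 2 and −0.30 without LGDMEM 3. In LGDMEM against EMEM and in HGDMEM against LGDMEM 1 gene each, ID2, had no overlap, where 12% and 11.7% of all genes had none.

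**Figure D3:**
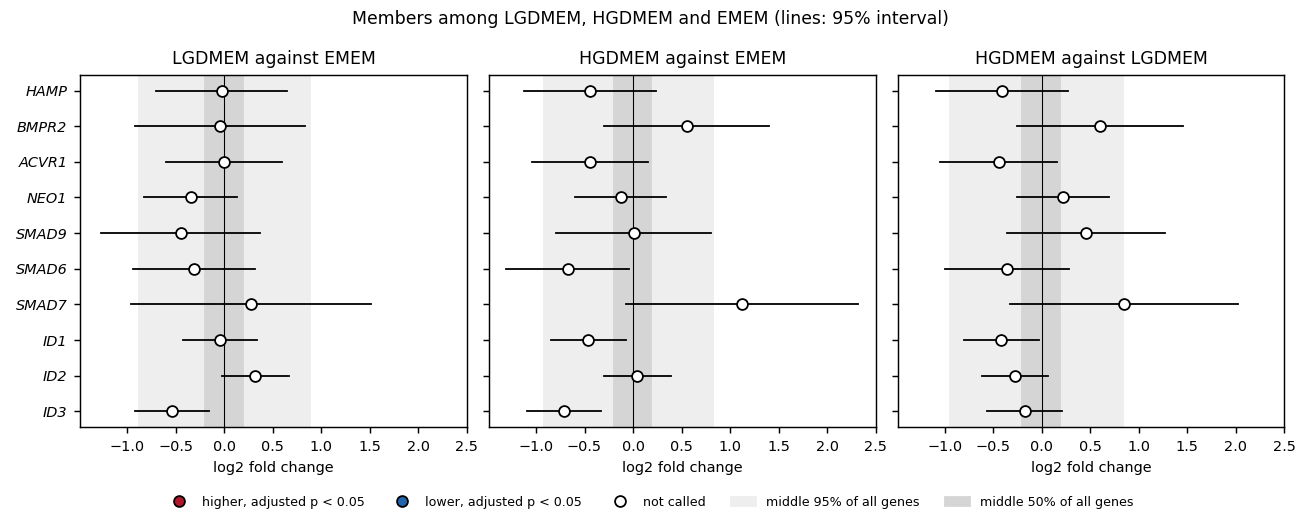
Log2 fold change of the 10 genes in LGDMEM against EMEM, HGDMEM against EMEM and HGDMEM against LGDMEM; points are estimates, lines are 95% intervals, open points did not pass an adjusted p of 0.05, and grey bands hold the middle 50% and 95% of all genes. All points are open, and the interval of ID3 in HGDMEM against EMEM, −1.10 to −0.33, does not reach 0.

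A wider list of 103 genes covered ligands, receptors, sensors, inhibitors, targets and transcription factors. It took in TGF-beta, activin and IL-6 signalling as well as the BMP-SMAD branch, so its counts are not of that branch alone. Of the 103, 70 genes were in the table, the 10 members among them. The other 33, among them BMP2, BMP6, HJV and SMAD1, were not analysed here. Of the 60 measured genes that are not members, 17 were higher and 6 lower in Plasmax than in EMEM (38.3%, where 22.1% of all genes were called). Against LGDMEM 18 were higher and 5 lower (38.3%, where 21.2% of all genes were called), and against HGDMEM 25 were higher and 6 lower (51.7%, where 26.9% were called). Their median log2 fold change was 0.26, 0.42 and 0.45 in Plasmax against EMEM, LGDMEM and HGDMEM, beside 0.02, 0.00 and 0.01 over all genes. The counts by role below are to be read beside the shares of all genes. In Plasmax 10% of all genes were higher and 12.1% lower than in EMEM. These shares were 9.48% and 11.7% against LGDMEM, and 12.8% and 14.1% against HGDMEM. Each role held only 4 to 12 measured non-members, and whether any role departs from those shares was not tested.

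Of 5 ligand genes, 2 were higher and 1 lower in Plasmax than in EMEM, and 0 were called against LGDMEM. INHBE, which encodes an activin subunit made in liver, averaged 64.7 ± 6.10 CPM in Plasmax and 13.1 ± 11.1 CPM in EMEM (log2 fold change 2.26, adjusted p = 0.00247). The EMEM libraries held 3.64, 25.3 and 10.5 CPM, and without EMEM 2 the value was 3.17 (adjusted p = 0.000392). Its LGDMEM libraries spread from 12.9 to 64.1 CPM, and it did not pass the threshold against LGDMEM (0.59, adjusted p = 0.379). GDF15, a stress-induced cytokine, averaged 2713 ± 92.7 CPM in Plasmax and 1288 ± 415 CPM in EMEM (1.08, adjusted p = 0.0107; 0.86, adjusted p = 0.0655 without EMEM 1). In LGDMEM it averaged 3112 ± 1770 CPM, and Plasmax overlapped it (−0.20, adjusted p = 0.665). BMP4, a ligand that activates the BMP-SMAD branch, averaged 1709 ± 88.8 CPM in Plasmax and 2141 ± 104 CPM in EMEM (−0.33, adjusted p = 0.0423), a call that leaving out any 1 of the 6 libraries ended (adjusted p between 0.069 and 0.147), as did upper-quartile scaling (adjusted p = 0.0502).

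Of 7 further receptor genes, 3 were higher and 0 lower in Plasmax than in EMEM. The type II activin receptor gene ACVR2B averaged 32.0 ± 2.99 CPM in Plasmax and 18.3 ± 3.75 CPM in EMEM (log2 fold change 0.80, adjusted p = 0.0168), a call lost without Plasmax 1 (0.75, adjusted p = 0.0547), Plasmax 3 (0.77, adjusted p = 0.0505), EMEM 1 (0.72, adjusted p = 0.0701) or EMEM 3 (0.72, adjusted p = 0.0713). The TGF-beta receptor genes TGFBR2 and TGFBR3 averaged 343.2 ± 14.4 and 362.3 ± 16.3 CPM in Plasmax, against 208.2 ± 39.1 and 244 ± 41.9 CPM in EMEM (0.72 with adjusted p = 0.00506 and 0.57 with adjusted p = 0.00521). BMPR1A, the type I receptor ALK3 that acts in hepcidin control, was not called, at 10.9 ± 2.84 CPM in Plasmax and 9.13 ± 3.47 CPM in EMEM.

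Of 7 further co-receptors and iron sensors, 2 were higher and 2 lower in Plasmax than in EMEM. FURIN, a protease that matures prohepcidin and BMP ligands and cleaves haemojuvelin, had 183.5, 194.1 and 189.6 CPM in Plasmax, against 44.7, 49.3 and 49.7 CPM in EMEM (log2 fold change 1.98, adjusted p = 9.11e-07). No library of either group came near the other. The BMP co-receptor gene RGMB averaged 23.7 ± 0.46 CPM in Plasmax and 9.92 ± 3.26 CPM in EMEM (1.26, adjusted p = 0.0053). TFRC, which encodes transferrin receptor 1 and whose transcript is stabilised when cell iron is low, had a log2 fold change of −1.28 (adjusted p = 2.68e-07). The other lower gene was B2M, the HFE partner beta-2 microglobulin (−0.52, adjusted p = 0.0464), a call that ended with upper-quartile or library-size scaling, limma voom or a replicate block (adjusted p between 0.0528 and 0.0576), and without any of the Plasmax libraries or EMEM 2, where it was −0.20 (adjusted p = 0.372). TFR2, the iron-sensing second transferrin receptor, was at 13.0 ± 2.43 CPM in Plasmax and 12.3 ± 4.40 CPM in EMEM and was not called.

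Among 4 further SMAD transducers, SMAD3, of the TGF-beta branch, was called, at 82.2 ± 16.6 CPM in Plasmax and 43.9 ± 4.47 CPM in EMEM (log2 fold change 0.91, adjusted p = 0.000941). The BMP-branch transducer SMAD5 and the common partner SMAD4 were not called against EMEM (0.25, adjusted p = 0.371, and 0.39, adjusted p = 0.173). Neither was called against LGDMEM (0.52, adjusted p = 0.0631, and 0.53, adjusted p = 0.0668). Against HGDMEM SMAD4 was higher (0.90, adjusted p = 0.0027) and SMAD5 was not called (0.37, adjusted p = 0.163). Of 12 further intracellular inhibitors, 4 were higher and 0 lower in Plasmax than in EMEM. SKIL, a co-repressor of SMADs, averaged 30.8 ± 3.25 CPM in Plasmax and 14.4 ± 3.23 CPM in EMEM (1.10, adjusted p = 0.00461). CTDSP2, a SMAD phosphatase, averaged 188.7 ± 20.7 CPM in Plasmax and 111.7 ± 17.9 CPM in EMEM (0.76, adjusted p = 0.00491). SMURF2, a ubiquitin ligase for SMADs and receptors, averaged 17.2 ± 0.74 CPM in Plasmax and 9.31 ± 2.27 CPM in EMEM (0.88, adjusted p = 0.0294), a call lost without any Plasmax library, EMEM 1 or EMEM 3 (adjusted p between 0.0548 and 0.105). The related co-repressor gene SKI had a log2 fold change of 0.35 (adjusted p = 0.0412), a call lost without Plasmax 1, Plasmax 3, EMEM 1 or EMEM 3 (adjusted p between 0.0855 and 0.171). Among 5 extracellular inhibitors, 0 were higher and 1 was lower in Plasmax than in EMEM. It was TWSG1, a BMP-binding protein, at 12.0 ± 1.46 CPM in Plasmax and 23.5 ± 2.86 CPM in EMEM (−0.97, adjusted p = 0.0228), a call lost without Plasmax 1, Plasmax 3, EMEM 1 or EMEM 2 (adjusted p between 0.0651 and 0.0748). In the other comparisons with Plasmax the calls of these inhibitors went the other way. Against LGDMEM 1 was higher, NBL1 (1.90, adjusted p = 0.000463), and 0 were lower. Against HGDMEM 2 were higher, NBL1 (1.72, adjusted p = 0.000607) and FST (0.75, adjusted p = 0.0185), and 0 were lower.

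Among 5 further BMP-SMAD targets, JUNB, an AP-1 factor gene, was called, at 83.7 ± 6.80 CPM in Plasmax and 31.0 ± 6.11 CPM in EMEM (log2 fold change 1.43, adjusted p = 0.00141), opposite in direction to HAMP, ID1 and ID3. Of 8 genes of the IL-6 and STAT3 arm, 3 were higher and 0 lower in Plasmax than in EMEM. Against LGDMEM 4 were higher and 0 lower, and against HGDMEM 6 were higher and 0 lower. SOCS3, the feedback inhibitor that STAT3 induces, had 24.1, 17.4 and 18.0 CPM in Plasmax, against 5.10, 2.85 and 1.47 CPM in EMEM (2.67, adjusted p = 0.00332). The IL-6 receptor gene IL6R averaged 43.2 ± 7.11 CPM in Plasmax and 17.5 ± 5.68 CPM in EMEM (1.29, adjusted p = 0.00372). STAT3 averaged 77.4 ± 9.52 CPM in Plasmax and 55.1 ± 5.48 CPM in EMEM (0.49, adjusted p = 0.0199), a call lost without Plasmax 1 (0.39, adjusted p = 0.0999) or EMEM 2 (0.42, adjusted p = 0.0811). HAMP, also a target of this arm, was lower in the same libraries. Whether the activity of the arm differed between the media was not tested.

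Of 8 transcription factors of the HAMP gene, 1 was higher and 2 lower in Plasmax than in EMEM. CEBPA, a liver factor that activates HAMP, averaged 85.0 ± 17.2 CPM in Plasmax and 174.8 ± 40.6 CPM in EMEM (log2 fold change −1.04, adjusted p = 0.00307). HNF4A, a master regulator of hepatocyte genes, averaged 62.3 ± 4.64 CPM in Plasmax and 84.6 ± 7.08 CPM in EMEM (−0.44, adjusted p = 0.0493), and this call, at the threshold, was lost with RLE, upper-quartile and library-size scaling, with limma voom, with a replicate block and in 5 of 6 fits without 1 library (all but EMEM 2), with adjusted p between 0.0521 and 0.151. CEBPB, a factor of the acute phase, averaged 605.9 ± 27.0 CPM in Plasmax and 356.4 ± 62.4 CPM in EMEM (0.77, adjusted p = 0.0131; 0.64, adjusted p = 0.0729 without EMEM 1). In LGDMEM it averaged 508.5 ± 195 CPM, overlapping Plasmax (0.25, adjusted p = 0.422).

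Several other genes named for Plasmax against EMEM did not pass in the remaining comparisons with Plasmax. Against LGDMEM these were BMP4 (−0.18, adjusted p = 0.282), B2M (−0.12, adjusted p = 0.688), SKIL (0.71, adjusted p = 0.0502), TWSG1 (−0.43, adjusted p = 0.329) and STAT3 (0.37, adjusted p = 0.0758). Against HGDMEM they were BMP4 (−0.09, adjusted p = 0.58), ACVR2B (0.61, adjusted p = 0.053), B2M (−0.07, adjusted p = 0.802), SMURF2 (0.61, adjusted p = 0.11) and TWSG1 (−0.50, adjusted p = 0.228).

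**Figure D4:**
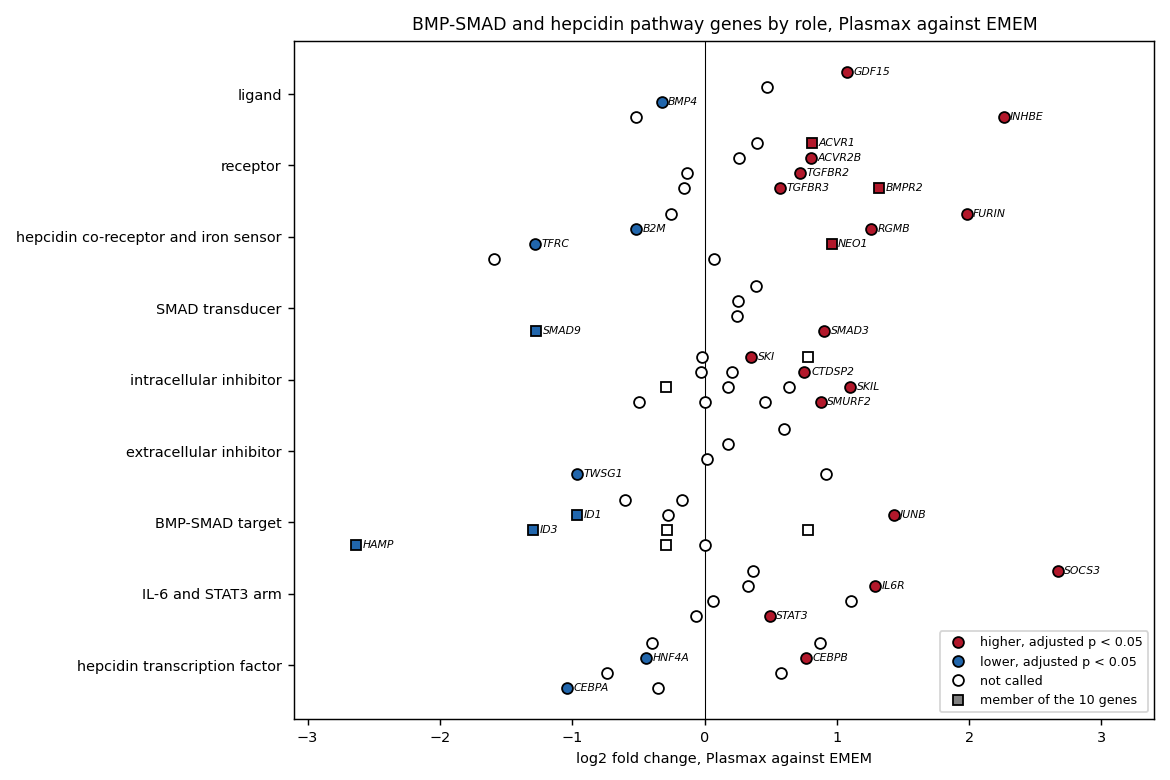
Log2 fold change in Plasmax against EMEM (x axis) of the 70 measured genes of the wider pathway list, in rows by role; BAMBI, SMAD6 and SMAD7 stand in 2 rows. Squares are the 10 members, filled symbols have an adjusted p below 0.05 and carry names. FURIN, INHBE and SOCS3 lie at 1.98, 2.26 and 2.67, and HAMP lies at −2.64.

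Between the other media, 1 gene of the wider list was called, CTDSPL, another SMAD phosphatase gene, at 81.8 ± 3.45 CPM in HGDMEM and 135.4 ± 14.1 CPM in EMEM (log2 fold change −0.73, adjusted p = 0.0293). The call held without EMEM 1 and was lost without each other library of these 2 media (adjusted p between 0.127 and 0.167).

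The profile of HAMP over the 12 libraries was set beside that of each of 7842 genes averaging 10 CPM or more, by the root mean square difference of log2 CPM after each gene was centred on its own mean. The nearest were NUDT1 (0.43), which hydrolyses oxidised nucleotides, FADS1 (0.44), a fatty acid desaturase, DSN1 (0.44), a kinetochore protein, LSS (0.46), an enzyme of cholesterol synthesis, and PIF1 (0.47), a DNA helicase, against a median of 1.23 over all genes ranked. FADS1, for example, averaged 41.1 ± 5.45 CPM in Plasmax, 201.1 ± 39.7 CPM in LGDMEM, 211.3 ± 18.7 CPM in HGDMEM and 220.1 ± 24.1 CPM in EMEM. Members were farther away. ID3 was at rank 379 (0.85), ID1 at 435 (0.87), ID2 at 1481 (1.05) and SMAD6 at 3402 (1.20), while ACVR1, NEO1 and BMPR2 were at 7533, 7558 and 7730 (1.63 to 1.82). ID1 and ID3 were each at rank 4 for the other (0.24). SMAD9 (0.865 from HAMP) and SMAD7 (1.48) averaged under 10 CPM and were not ranked. Profiles were centred but not scaled to 1 size, so a gene with a smaller change lies far from HAMP even where the shape is alike. These distances are descriptions, and all genes compared share the libraries and their depth scaling.

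**Figure D5:**
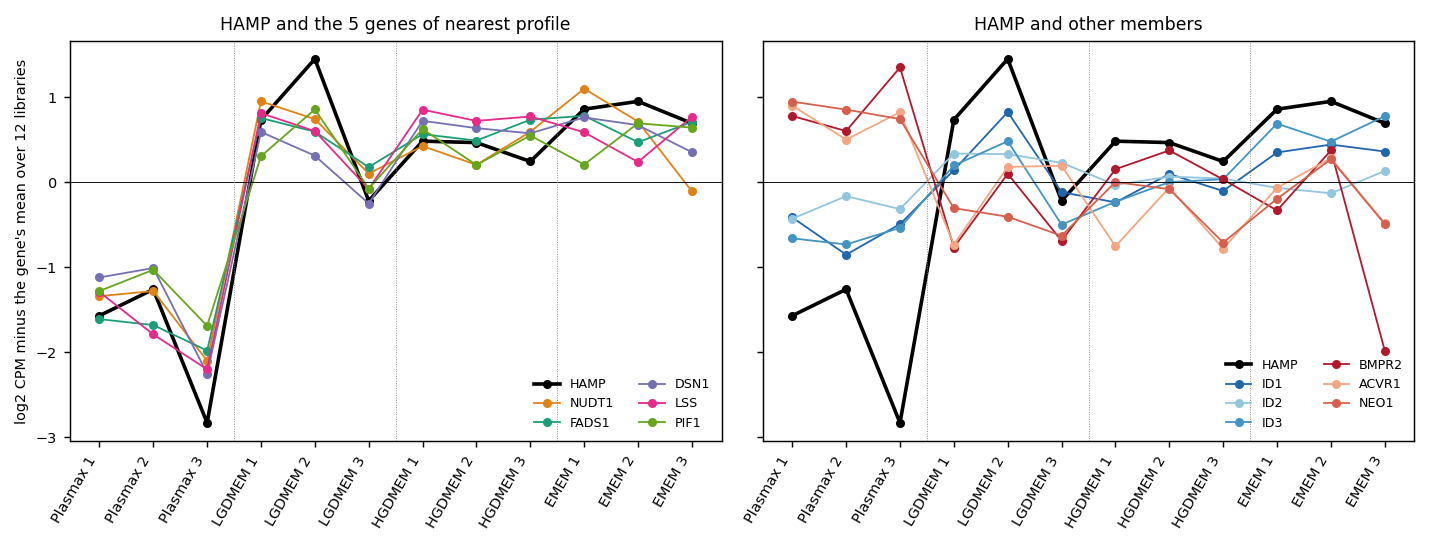
Log2 CPM minus the gene's own mean over the 12 libraries (y axis) by library (x axis), for HAMP with the 5 genes of nearest profile (left) and HAMP with 6 other members (right); dotted lines part the media, Plasmax first. HAMP reaches −2.83 in Plasmax 3, and BMPR2 its highest value, 1.35, in the same library.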

How the data were processed

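The authors deposited 1 table of raw counts per gene for 12 HepG2 libraries made with a 3′ mRNA kit (QuantSeq), with 11546 rows already filtered on low counts by a rule not given in the sources used here. The submitters' processing notes name hg19/GRCh37, the tools STAR 2.7.5b, featureCounts 1.6.3, cutadapt 1.16, FastQC 0.72 and limma 3.40.6, with no role or order. The 601 rows without a symbol (2.92% to 3.71% of counts) were left out, and 0 columns belonged to other samples. On the other 10945 rows, differences were computed from the deposited counts by edgeR 4.0.16, R 4.3.3 (TMM scaling, quasi-likelihood test over all 12 libraries, no block, adjusted p below 0.05). Each SE was taken as the size of the log2 fold change over √F.

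The members, the wider list and the comparisons were chosen with earlier results of these data known. From the wider list, up to 3 called non-members per role with the largest change in Plasmax against EMEM were named, with any gene called between the other media. B2M, SKI, BMPR1A, TFR2, SMAD4, SMAD5, NBL1, FST and GATA2 were named after their values were seen.

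Over all genes, the deviations of libraries with the same replicate number correlated above 0.1 for all 3 numbers in no comparison. For number 1 the correlations were 0.166 in LGDMEM against EMEM, 0.128 in HGDMEM against EMEM and 0.112 in HGDMEM against LGDMEM. In these comparisons numbers 2 and 3 gave 0.0119 to 0.0755, and comparisons with Plasmax gave −0.0365 to 0.0298. Over 4366 genes above a log2 CPM of 5, all 3 numbers were above 0.1 for HGDMEM libraries with those of EMEM (0.186, 0.11 and 0.124) and with those of LGDMEM (0.246, 0.165 and 0.21), so the numbers may pair those libraries. Alternatives were other scalings and filters, DESeq2 1.42.0, limma voom 3.58.1, a replicate block, fits to 2 media, an adjusted p of 0.01 and leaving out each library.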

Additional observations from a re-analysis of the deposited data

How the results depend on the processing

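HAMP and NEO1 kept their direction and their call in all 16 alternatives of each comparison with Plasmax (HAMP against EMEM, −2.99 to −2.29), and ID1 and ID3 did so against EMEM and LGDMEM. The low-count filter of the main fit removed 0 rows, so the fit without a filter repeated it. The threshold of 0.01 reused the main fold changes. At an adjusted p of 0.01, 4, 4 and 3 of the 10 genes were called in Plasmax against EMEM, LGDMEM and HGDMEM (11.8%, 11.5% and 15.6% of all genes), and 17 and 19 of the wider list against EMEM and LGDMEM, where 30 and 30 were called at 0.05. In fits without 1 library, the members called over the 4 media ranged from 4 to 7, and the share of all genes in those fits was not computed. In Plasmax against each other medium they ranged from 4 to 6 against EMEM (15.5% to 19.3% of all genes), 5 to 6 against LGDMEM (15.2% to 20.7%) and 3 to 5 against HGDMEM (20.6% to 22.2%). The genes of the wider list called ranged from 20 to 26, 22 to 27 and 28 to 33 in the same 3 comparisons, and from 0 to 3 in LGDMEM against EMEM (0.0183% to 0.795% of all genes), 0 to 1 in HGDMEM against EMEM (0.00914% to 0.064%) and 0 to 3 in HGDMEM against LGDMEM (0.0365% to 1.08%). The alternatives for the wider list and its named genes were chosen after seeing the data. In HGDMEM against EMEM, DESeq2 and the fit to the 2 media alone each called 1 member and 2 genes of the wider list (0.621% and 0.405% of all genes), and 0 of the wider list passed 0.01. DESeq2 called 4 genes of the wider list in LGDMEM against EMEM (0.594% of all genes) and 2 in HGDMEM against LGDMEM (0.709%). With the replicate block the members called were unchanged in number (7, 7 and 5 in Plasmax against EMEM, LGDMEM and HGDMEM, and 0 in the other 3 comparisons), and 1 gene of the wider list was called in LGDMEM against EMEM and 2 in HGDMEM against LGDMEM (0.137% of all genes in each). The causes were not tested.

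Values that changed sign were all uncalled. In LGDMEM against EMEM, BMPR2 was 0.20 with limma voom and 0.000554 with the replicate block, against −0.04, and ACVR1 was 0.003158 with RLE scaling, 0.001407 with the stricter filter, 0.002713 with DESeq2 and 0.002371 in the fit to the 2 media, against −0.002062. In fits without 1 library, LGDMEM against EMEM ranged from −0.51 to 0.30 for HAMP, −0.47 to 0.59 for BMPR2, −0.18 to 0.24 for ACVR1, −0.058 to 0.79 for SMAD7 and −0.37 to 0.14 for ID1. HGDMEM against EMEM ranged from −0.29 to 0.12 for NEO1, −0.26 to 0.18 for SMAD9 and −0.006111 to 0.13 for ID2, and HGDMEM against LGDMEM from −0.74 to 0.077 for HAMP and −0.41 to 0.054 for ID3. Plasmax against LGDMEM ranged from −0.21 to 0.26 for SMAD6, and Plasmax against HGDMEM from −0.66 to 0.27 for SMAD7. SMAD7 fell under the stricter filter and has no value there, and DESeq2 and the fit to 2 media were not run for the test over the 4 media. Low counts (8 to 62 per library for SMAD7, 15 to 53 for HAMP in Plasmax) limit the precision of these genes.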

Other observations

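GATA2, a transcription factor gene listed among the BMP-SMAD targets and picked out after its values were seen, averaged 20.7 ± 1.31 CPM in Plasmax, against 39.0 ± 6.48 CPM in LGDMEM, 36.8 ± 8.56 CPM in HGDMEM and 31.4 ± 5.55 CPM in EMEM (SD, n = 3). It was lower in Plasmax than in LGDMEM (log2 fold change −0.91, adjusted p = 0.00514, edgeR) and HGDMEM (−0.83, adjusted p = 0.00748), and did not pass the threshold against EMEM (−0.60, adjusted p = 0.0522). The gene of nearest profile to ACVR1 among the 7842 ranked was TGFBR2, another receptor of the same superfamily, at a root mean square difference of 0.19 on the log2 scale, beside a median of 0.63 over all genes ranked. This match was also picked out after the values were seen. EML2 (0.214), FMNL2 (0.215), LINC02313 (0.217) and TMEM87B (0.222) were nearly as near to ACVR1. TGFBR2 was also higher in Plasmax than in LGDMEM (0.86, adjusted p = 0.00142) and HGDMEM (0.95, adjusted p = 0.000421).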
